A study of Mus musculus with 6 samples.

Results

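The HoxC genes are the 9 homeobox genes Hoxc4, Hoxc5, Hoxc6, Hoxc8, Hoxc9, Hoxc10, Hoxc11, Hoxc12 and Hoxc13, which stand side by side on mouse chromosome 15. They were chosen by name and position, as all Hox genes of this cluster, and make up 9 of the 25043 genes matched in the authors' deposited table. All 9 had reads, an adjusted p-value and a single RefSeq transcript in that table, so no member was lost to a filter on low values. The study asked how the histone chaperone ANP32E and the histone variant H2A.Z, whose accumulation it is reported to limit, shape chromatin state. Gene expression was 1 of the study's readouts. RNA was sequenced from primary mouse embryonic fibroblasts (MEFs) of WT and Anp32e null embryos, with 3 libraries of each genotype from cells at a passage below 8. The paper describes its replicates as biological, but no source used here says that the 3 libraries of a genotype came from separate embryos, so the p-values measure only the spread between these samples.

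Hox genes code for transcription factors that give cells their position along the body axis. Mammals carry them in the clusters HoxA, HoxB, HoxC and HoxD, and within a cluster the order of the genes follows the order in which they are switched on in time and from head to tail (collinearity). Genes with the same number in different clusters are paralogues, derived from a common ancestor. Polycomb complexes keep silent Hox genes packed and Trithorax complexes keep active ones open, while cofactors of the TALE family, such as Pbx and Meis proteins, bind DNA together with Hox proteins. Fibroblasts in culture keep a pattern of active Hox genes that marks the body region they came from.

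The comparison of Anp32e null with WT MEFs is given here in 2 ways. The log2 fold changes (log2FC, Anp32e null over WT), standard errors and adjusted p-values are those of the authors' deposited DESeq2 table, where a gene is called if its adjusted p is under 0.05 and its log2FC is above 1.5 or below −1.5. Reads per library were recovered from the deposited means, which are sums of whole reads that the authors had divided by a size factor of each library. The libraries are named here by letters within their group, which carry no replicate number. The size factors were 1.13, 1.05 and 0.987 for WT libraries a, b and c, and 1.03, 0.936 and 0.909 for Anp32e null libraries a, b and c. Total reads per library are unknown, and size factors show only that the relative depth of the 6 libraries was similar. Reads divided by size factors are called normalised reads. Intervals on ratios of reads are exact for independent reads and cover counting error only, not the spread between libraries. Reads copied by PCR are not independent molecules, so even the counting error can be larger than these intervals show.

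Anp32e, the targeted gene on chromosome 3 (chr3:95929245-95947387), checks the genotype first. It was called lower in the deposited DESeq2 comparison (log2FC −1.54), and reads on the gene remained in Anp32e null libraries. The groups also differed in sex-linked transcripts. Xist, transcribed from the inactive X chromosome, had a computed mean of 5111 normalised reads in WT and under 1 in Anp32e null libraries. The Y-linked genes Ddx3y, Eif2s3y, Uty and Kdm5d had computed means of 1103, 917, 674 and 663 in Anp32e null libraries and under 1 each in WT libraries. Genotype and this difference cannot be told apart in the values that follow.

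All 12 genes of a fibroblast marker list had reads. Vim, the intermediate filament of mesenchymal cells and the most abundant of them, had a log2FC of −0.00 and made up 330721 of the summed WT mean of 554102 normalised reads, beside a sum of 591072 in Anp32e null libraries. Col3a1 (log2FC 1.65) and Dcn (4.44) were called higher, and at an adjusted p under 0.05 there were 8 higher and 1 lower. Markers of the mesothelium, the lining of body cavities, moved too, with 5 of 8 called higher in Anp32e null MEFs. Wt1, Upk1b, Upk3b and Lrrn4 had computed WT means of at most 5.04 normalised reads and Anp32e null means of 600.5, 1835, 1205 and 217. All 8 had reads, and their most abundant member Krt19 (log2FC −0.69) made up 9129 of the summed mean of 9724 in WT and 5671 of 11971 in Anp32e null libraries. Of 6 epithelial markers 1 was called higher (Cdh1, log2FC 4.42), which made up 5.95 and 128 of the summed means of 24.4 and 150.2. Epcam, Krt5 and Cldn4 had log2FC of 1.62, −0.20 and −0.54, were not called, and Esrp1 had no read. Krt14, also not called, had 0 reads in WT and 5, 1 and 3 in Anp32e null libraries a, b and c. Of 6 endothelial markers 1 was called higher (Vwf, 3.47), with Kdr the most abundant, summed means of 3160 and 2946 and no read of Emcn. Of 6 chondrocyte markers 2 were called lower (Acan and Hapln1, −3.62 and −3.51), while Sox9 had a log2FC of 0.52 and was not called, with Col2a1 the most abundant, summed means of 932 and 756 and no read of Col9a1. Of 6 skeletal muscle markers 1 was called lower (Acta1, −1.65, also the most abundant), which made up 7141 and 2281 of the summed means of 7267 and 2410, while Des and Ttn had log2FC of −0.12 and 0.18, with no read of Myod1 or Myf5. Of 6 neuron markers 1 was called lower (Stmn2, −3.32), with Map2 the most abundant, summed means of 3200 and 2171 and no read of Snap25. The part of these cell types in the HoxC values was not tested, and in bulk RNA a change in the number of cells of a type and a change in RNA per cell cannot be told apart.

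Of the 9 HoxC genes, 6 were called higher in Anp32e null MEFs, 0 lower and 3 not called, against 2.79% of autosomal genes called higher and 2.19% called lower. The 6 were Hoxc4, Hoxc5, Hoxc6, Hoxc8, Hoxc9 and Hoxc10, with deposited fold changes from 9.95 to 48.0. They lay next to each other in a block of 70.1 kb (chr15:102966796-103036856) within a cluster of 115.7 kb (chr15:102921131-103036856), all on the plus strand. Hoxc11, Hoxc12 and Hoxc13, at the other end, were not called. In the same 6 genes every Anp32e null library lay above every WT library, and in the other 3 the groups overlapped. Among 5488 autosomal genes with recovered reads, 13.9% had every Anp32e null library above every WT library and 15.1% had every one below, while 5.1% were called higher in the deposited comparison. The median log2FC of the 9 genes was 3.96, beside −0.00 for all autosomal genes tested, and 8 of the 9 values were positive. When limma was fitted to the recovered reads, the same 6 genes were called, against 4.96% of the 5488 genes called higher.

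Summed over the 9 genes, WT libraries a, b and c held 39, 43 and 32 reads, and Anp32e null libraries a, b and c held 433, 300 and 368. Every Anp32e null library thus held more HoxC reads than the 3 WT libraries together, which had 114. After division by size factors the sums were 35.9 ± 4.42 in WT and 382 ± 54.1 in Anp32e null libraries (mean ± SD, n = 3). Of all HoxC reads of the WT libraries, 38.6% came from Hoxc13, with 35.9%, 53.5% and 21.9% in libraries a, b and c. In the Anp32e null libraries Hoxc6 had the largest share with 30.5%, and it had the most reads of the 9 genes in each of the 3. There the share of Hoxc13 was 6.18%, with 8.78%, 7.33% and 2.17% in libraries a, b and c.

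**Figure D1:**
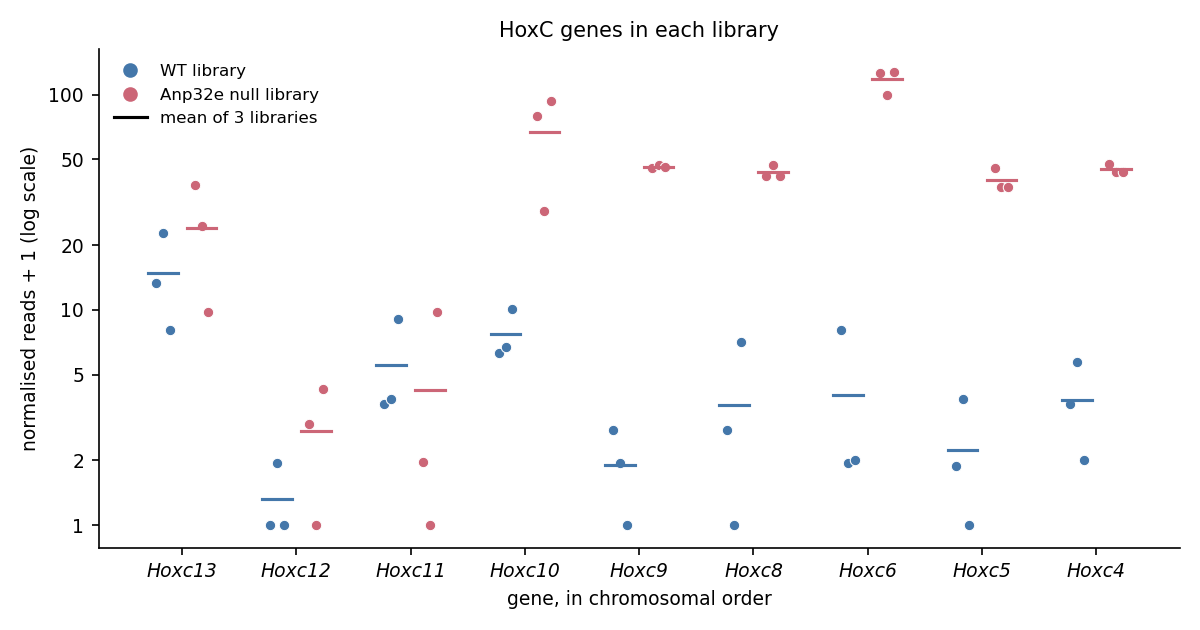
Normalised reads (plus 1, log scale) of each HoxC gene in the 3 WT and 3 Anp32e null libraries, in chromosomal order from Hoxc13 to Hoxc4. Points are libraries and bars are means of 3; in the 6 genes from Hoxc10 to Hoxc4 the Anp32e null points lie above all WT points, and in Hoxc13, Hoxc12 and Hoxc11 they overlap.

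Hoxc4 (chr15:103018097-103036856) acts in the neck and forelimb region and has the lowest number in the cluster. It had 3, 5 and 1 reads in WT libraries a, b and c and 48, 40 and 39 in Anp32e null libraries a, b and c. The Anp32e null values were close together, and the groups did not overlap. Means of normalised reads were 2.81 ± 1.88 in WT and 44.1 ± 2.25 in Anp32e null libraries (SD, n = 3). The ratio was 15.6 (95% interval 7.95 to 34.8), and the log2FC of the deposited DESeq2 Wald test was 3.96 (standard error 0.638, adjusted p = 8.69e-09). Hoxc5 (chr15:103014008-103017429), its neighbour with a role in the same region, had 1, 3 and 0 reads in WT and 46, 34 and 33 in Anp32e null libraries. Anp32e null library a was the highest, libraries b and c were nearly equal, and all 3 were far above the WT libraries. Means were 1.25 ± 1.46 and 39.1 ± 4.88 normalised reads. The ratio was 31.2 (95% interval 11.8 to 116), and the log2FC was 4.96 (standard error 0.857, adjusted p = 1.00e-07, deposited DESeq2 Wald test).

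The promoter of Hoxc4 is shown because it belongs to a called gene and is the only HoxC promoter among the 32851 promoter windows searched (1 of 9 members; RefSeq, GRCm38.p6). The window runs from 250 bases before to 50 bases after a start site that lies inside the annotated span of the gene, at chr15:103034145-103034444 on the plus strand. Capitals mark the motifs that were found.

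Hoxc4 promoter: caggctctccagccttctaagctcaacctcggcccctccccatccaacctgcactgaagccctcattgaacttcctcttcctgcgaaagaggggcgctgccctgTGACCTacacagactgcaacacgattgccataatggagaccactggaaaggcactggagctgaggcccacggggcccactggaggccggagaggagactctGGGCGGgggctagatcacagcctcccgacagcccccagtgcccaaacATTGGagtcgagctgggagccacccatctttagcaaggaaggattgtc

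The window has 60.3% G and C, against a median of 52.7% over all promoters, and 9 CpG dinucleotides. Both strands were searched for 8 motifs. TGACCT at base 105 is the reverse complement of AGGTCA, the core that many nuclear receptors bind, and 16.3% of all promoters hold it. GGGCGG, a GC box, begins at base 206 and is in 35.7% of promoters. ATTGG at base 253 is the reverse complement of CCAAT, in 37.4% of promoters. The window held no TATAAA (in 13.6% of promoters), no CACGTG (7.15%), no TTTATNG of Cdx factors (10.9%), no TAATTA of homeodomain proteins (5.29%) and no TGATTNAT of Pbx and Hox pairs (3.22%). A match is a description of these letters, not a site, and a missing match says nothing about a factor.

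Hoxc6 (chr15:102998226-103011882), a gene of the border between neck and thorax, was the most abundant member in Anp32e null MEFs. It had 8, 1 and 1 reads in WT libraries a, b and c and 129, 92 and 115 in Anp32e null libraries a, b and c. WT library a held 8 of the 10 WT reads, and all Anp32e null libraries were far above it. Means were 3.01 ± 3.52 and 117 ± 16.0 normalised reads. The ratio was 37.1 (95% interval 19.9 to 78.0). The deposited DESeq2 Wald test gave a log2FC of 5.22 (standard error 0.552) with an adjusted p of 1.50e-19, the smallest of the 9.

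Hoxc8 and Hoxc9 pattern the thoracic vertebrae and the motor neurons of the trunk. Hoxc8 (chr15:102990539-102994275) had 2, 0 and 6 reads in WT libraries a, b and c and 42, 43 and 37 in Anp32e null libraries a, b and c. The WT libraries spread from no read to 6, and the Anp32e null libraries were close together and higher. Means were 2.62 ± 3.13 and 42.5 ± 2.98 normalised reads. The ratio was 16.8 (95% interval 8.28 to 39.9), and the log2FC was 4.06 (standard error 0.695, adjusted p = 7.33e-08, deposited DESeq2 Wald test). Hoxc9 (chr15:102977032-102984444) had 2, 1 and 0 reads in WT and 46, 43 and 41 in Anp32e null libraries. After division by size factors its Anp32e null values were 44.8, 46.0 and 45.1, an SD of 0.611 around 45.3 and the smallest among the 6 called genes. With 3 WT reads in all, the ratio of 47.8 has a 95% interval from 16.0 to 235. The fitted log2FC of 5.59 (standard error 0.934, adjusted p = 3.32e-08, deposited DESeq2 Wald test) rests on the same few WT reads.

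Between Hoxc10 and Hoxc9 lies Mir196a-2, and its mature miRNA miR-196a-5p is known to pair with Hoxc8 mRNA. It is shown with the other arm of its hairpin and both arms of miR-615, whose gene lies inside Hoxc5, because these are the miRNAs encoded within the block of called genes (RefSeq, GRCm38.p6, plus strand). They lie at chr15:102973365-102973386 (miR-196a-5p), chr15:102973401-102973422 (miR-196a-2-3p), chr15:103014926-103014947 (miR-615-5p) and chr15:103014969-103014990 (miR-615-3p). Capitals mark the seed, bases 2 to 8.

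miR-196a-5p: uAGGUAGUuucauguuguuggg

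miR-196a-2-3p: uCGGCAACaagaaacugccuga

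miR-615-5p: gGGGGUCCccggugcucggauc

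miR-615-3p: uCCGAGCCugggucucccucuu

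The site complementary to the seed of miR-196a-5p, ACTACCT, occurred in 13.6% of 22850 transcripts and in 1 of the 9 HoxC transcripts, Hoxc8. Hoxc8 holds it at 2 places in the 3′ UTR, chr15:102992976-102992997 and chr15:102993733-102993754, each with 12 of 22 bases able to pair when the window is laid against the whole miRNA without gaps. Capitals mark the site.

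Hoxc8, first place: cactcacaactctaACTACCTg

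Hoxc8, other place: taaatctttaacatACTACCTa

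The site of miR-615-5p, GGACCCC, occurred in 19.2% of transcripts and in 3 of the 9, Hoxc6, Hoxc11 (beyond the RefSeq end of the gene, in the longer GENCODE model) and Hoxc12, that of miR-615-3p, GGCTCGG, in 11.8% and in none of the 9, and that of miR-196a-2-3p, GTTGCCG, in 4.42% and in none of the 9. Among the genes with a site, Hoxc8 and Hoxc6 were called higher and Hoxc11 and Hoxc12 were not called. Libraries of total RNA do not measure mature miRNAs. Of their genes, Mir196a-2 had no read in any library and Mir615 had 2 reads, both in Anp32e null library b.

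Hoxc10 (chr15:102966796-102971898), a gene of the lumbar region and hindlimb, ends the block of called genes. It had 6, 6 and 9 reads in WT libraries a, b and c and 81, 26 and 84 in Anp32e null libraries a, b and c. Anp32e null library b was low, at 27.8 normalised reads beside 78.8 and 92.4 in libraries a and c, yet above the highest WT library at 9.12. Means were 6.71 ± 2.10 in WT and 66.4 ± 34.1 in Anp32e null libraries, a coefficient of variation of 51.4% in the latter. The ratio was 10.04 (95% interval 6.38 to 16.6), and the deposited DESeq2 Wald test gave a log2FC of 3.31 (standard error 0.561, adjusted p = 4.88e-08). With the threshold of 1.5 made the null hypothesis of a Wald test on the deposited DESeq2 values, its adjusted p was 0.0824, and those of the other 5 called genes lay between 2.93e-09 and 0.0186. The counting interval of its ratio ended below the start of that of Hoxc6 (19.9), while every other pair among the 6 called genes had overlapping counting intervals. The 95% intervals of the deposited log2FC, which include the spread between libraries, overlapped for Hoxc10 (2.22 to 4.41) and Hoxc6 (4.14 to 6.30). Differences between the fold changes of members were not tested.

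Hoxc11, Hoxc12 and Hoxc13 belong to the tail and distal limb end of the cluster. Hoxc11 (chr15:102954526-102956701), active in the hindlimb and sacral region, had 3, 3 and 8 reads in WT libraries a, b and c and 1, 0 and 8 in Anp32e null libraries a, b and c. Libraries with 8 reads occurred in both groups, so the groups overlapped. The ratio was 0.709 (95% interval 0.271 to 1.76), and the log2FC was −0.48 with a 95% interval from −3.12 to 2.15 (adjusted p = 0.826, deposited DESeq2 Wald test). Hoxc12 (chr15:102936826-102938609) had 0, 1 and 0 reads in WT and 2, 0 and 3 in Anp32e null libraries. With 6 reads in all, its ratio of 5.52 has a 95% interval from 0.617 to 261, which takes in no difference as well as the ratios of the called genes. Its fitted log2FC was 2.36 with a standard error of 2.45 (adjusted p = 0.506, deposited DESeq2 Wald test).

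Hoxc13 (chr15:102921131-102928814), which hair follicles and nails need, was measured at more depth than these 2 genes. It had 14, 23 and 7 reads in WT libraries a, b and c and 38, 22 and 8 in Anp32e null libraries a, b and c. Both groups held a library with few reads, and after division by size factors Anp32e null library c fell within the WT range and library b just above it (23.5 against 21.9). Means were 13.8 ± 7.49 and 23.1 ± 14.1 normalised reads. The ratio of 1.71 had a counting interval from 1.15 to 2.55, but the spread between libraries was wider, and the log2FC of 0.75 (standard error 0.650, 95% interval −0.53 to 2.02) did not pass the test (adjusted p = 0.413, deposited DESeq2 Wald test). The upper end of that interval is below the log2FC of each of the 6 called genes. An exact permutation test of 3 against 3 libraries (two-sided) cannot go below p = 0.1, the value it gave for each of the 6 called genes.

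Levels of different genes were compared as mean normalised reads per kb of transcript. In Anp32e null libraries the order was Hoxc6 (73.9 ± 10.1), Hoxc10 (34.8 ± 17.9), Hoxc8 (22.8 ± 1.60), Hoxc4 (22.3 ± 1.13), Hoxc9 (19.1 ± 0.258), Hoxc5 (13.4 ± 1.67), Hoxc13 (9.39 ± 5.73), Hoxc12 (1.70 ± 1.61) and Hoxc11 (1.61 ± 2.39). Libraries of neighbours in this order overlapped for Hoxc10 and Hoxc8, Hoxc8 and Hoxc4, Hoxc5 and Hoxc13, and Hoxc12 and Hoxc11, and were apart for the other pairs of neighbours. In WT libraries the order of levels per kb began with Hoxc13 (5.60 ± 3.04), Hoxc10 (3.51 ± 1.10) and Hoxc11 (2.24 ± 1.53) and ended with Hoxc9 (0.382 ± 0.373) and Hoxc12 (0.307 ± 0.533). There the libraries of all neighbours in the order overlapped.

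The cluster was set beside its surroundings. The 6 nearest genes on each side, from Atf7 before Hoxc13 to Copz1 beyond Hoxc4, included 11 with an adjusted p, and none of these was called by the deposited DESeq2 Wald test. At an adjusted or an unadjusted p under 0.05 there were 6, all with a positive log2FC, against 16.8% of autosomal genes higher and 14.2% lower at an adjusted p under 0.05. By limma 0 of the 4 flanking genes with recovered reads were called, though in 1 of them, Nfe2 (log2FC 1.01, adjusted p = 0.157, deposited DESeq2 Wald test), every Anp32e null library lay above every WT library. The log2FC of the 11 ran from −0.21 to 1.62 with a median of 0.34, close to the median of 0.32 over 574 genes of chromosome 15 with a mean of at least 10. Of 703 chromosome 15 genes tested, 41 were called higher, or 5.83%. The nearest gene with an adjusted p on the Hoxc13 side, Calcoco1 at 199 kb, had a log2FC of 0.05 (adjusted p = 0.798). On the Hoxc4 side, D930007P13Rik at 86.2 kb, with 9 reads over the 6 libraries, had a log2FC of −0.21 (adjusted p = 0.952), Smug1 at 116 kb one of 0.29 (adjusted p = 0.0333) and Cbx5 at 155 kb, which codes for the heterochromatin protein HP1 alpha, 0.29 (adjusted p = 0.0431; deposited DESeq2 Wald test for all 4). The highest value of the 11 belonged to LOC105246046, a locus with a mean of 3.10 normalised reads (log2FC 1.62, adjusted p = 0.422).

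Within the cluster the table has 4 other genes, and none had enough reads for an adjusted p. Hotair, a noncoding RNA transcribed from between Hoxc11 and Hoxc12, had 1 read, in Anp32e null library a. Gm36878, which lies within the annotated span of Hoxc9, had 0, 3 and 1 reads in Anp32e null libraries a, b and c and none in WT libraries. No 2 of the 36 pairs of HoxC transcript models share exonic bases, and no annotated exon on the opposite strand covers one. Hoxc10 shares 166 bases with an exon of a longer Hoxc5 model on the same strand. The paper names default settings for counting and does not spell out the treatment of strand and overlaps.

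**Figure D2:**
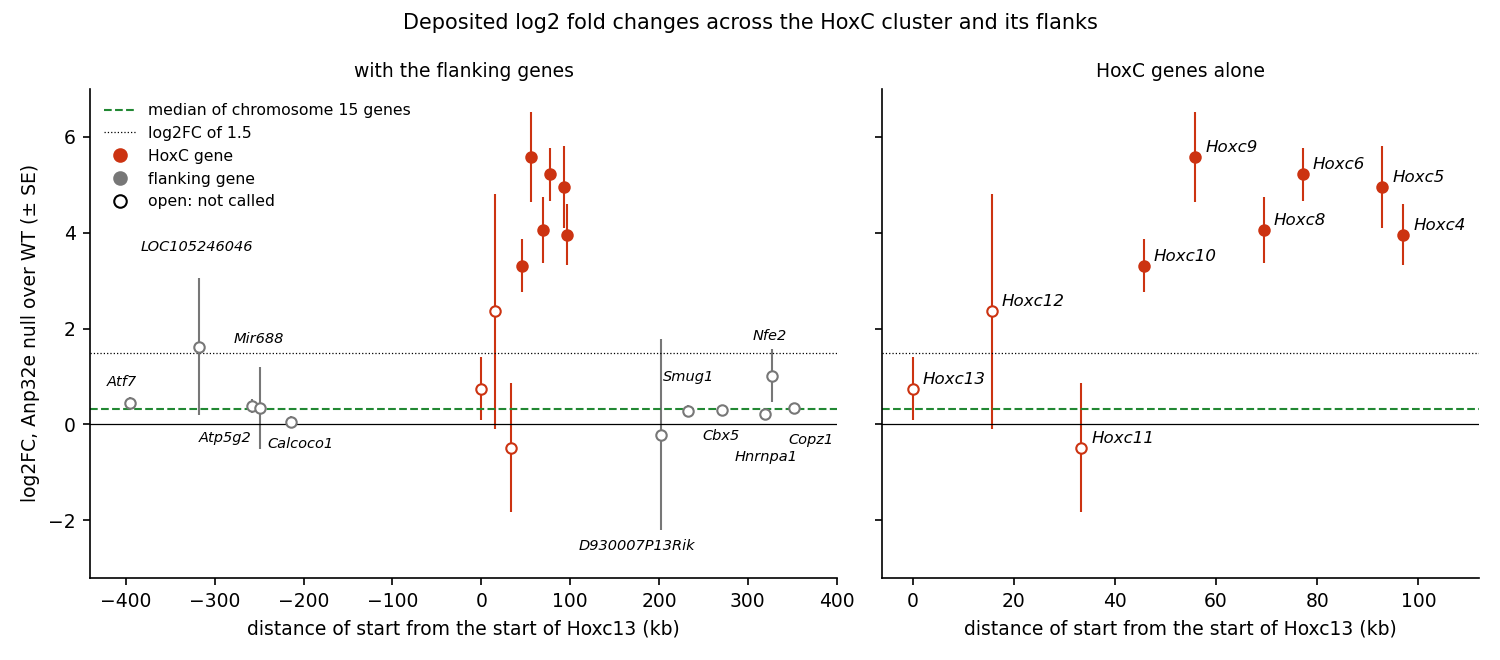
Deposited log2FC (Anp32e null over WT, ± standard error) against the distance of each gene's start from the start of Hoxc13 in kb, with the flanking genes (left) and for the HoxC genes alone (right). Filled points are called genes. The 6 called HoxC genes lie above the dotted line at 1.5, as does Hoxc12 (2.36), which was not called. The 11 flanking genes, none of them called, run from −0.21 to 1.62 (LOC105246046, above the dotted line). The dashed line is the chromosome 15 median of 0.32.

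Since Hox genes resemble each other, the longest run of bases that each HoxC transcript shares exactly with any of the other Hox transcripts was found. It ranged from 18 bases for Hoxc12 to 50 bases for Hoxc9, which shares a stretch of its 3′ UTR with its paralogue Hoxb9. The Hoxc9 run lies in a GENCODE model that extends beyond the RefSeq end of the gene given above. All runs were shorter than the sequenced reads, and the alignment settings for reads that fit more than 1 place are not given in the sources used here.

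The paralogues of the 9 genes in the other clusters lie on other chromosomes and were given by the same comparison. In HoxB, on chromosome 11, 5 of 6 paralogues were called higher, in HoxA, on chromosome 6, 1 of 7, and in HoxD, on chromosome 2, 2 of 7. None was called lower. Over whole clusters, 8 of 8 HoxB genes with an adjusted p, 1 of 11 in HoxA and 3 of 8 in HoxD were called higher. Over all genes with reads, which adds Hoxb13 and Hoxd1, the median log2FC of HoxB, HoxA and HoxD was 4.62, −0.02 and 1.06. In the Wald test with 1.5 as its null hypothesis, the counts of paralogues were 2, 0 and 0 for HoxB, HoxA and HoxD. In paralogue group 4 all of Hoxa4, Hoxb4, Hoxc4 and Hoxd4 were called, with log2FC of 1.63, 4.93, 3.96 and 1.97. Hoxb4 had 3 WT reads, which gives a ratio of 30.5 with a 95% interval from 10.1 to 151. Hoxb5 had 0 reads in WT and 30 in Anp32e null libraries, at least 11.0-fold more against a floor of 3 reads over the WT group, and its paralogue Hoxa5 had a log2FC of 0.33 (adjusted p = 0.342, deposited DESeq2 Wald test). In group 6, Hoxc6 and Hoxb6 had log2FC of 5.22 and 4.62 and Hoxa6 one of −0.02 (adjusted p = 0.969, deposited DESeq2 Wald test). In group 8, Hoxc8, Hoxb8 and Hoxd8 were called, at 4.06, 3.02 and 1.60. In group 9, Hoxc9 and Hoxb9 were called (5.59 and 2.07), and Hoxd9 (1.06) and Hoxa9 (−0.19) were not. Differences between paralogues were not tested.

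In groups 10 to 13 Hoxc10 was the only gene called, beside values of −0.09 for Hoxa10, 0.26 for Hoxd10, −0.00 for Hoxa11, 0.30 for Hoxd11, 0.54 for Hoxd12, 0.05 for Hoxa13 and −0.35 for Hoxd13. Of these, Hoxd11, Hoxd12 and Hoxd13 had adjusted p of 0.0147, 0.00135 and 0.000469 in the deposited DESeq2 Wald test, without passing 1.5. Hoxb13 had 4 reads, all in Anp32e null library c, and no adjusted p. HoxC was the cluster with the lowest summed level. Per kb of transcript its genes summed to 17.2 normalised reads in WT and 199 in Anp32e null libraries, those of HoxB to 36.8 and 305, those of HoxA to 2800 and 2734 and those of HoxD to 3607 and 3806. HoxC transcripts thus made up 0.266% of all Hox reads per kb in WT and 2.82% in Anp32e null MEFs. For Hoxc10, the level in Anp32e null MEFs of 34.8 per kb compares with 775 for Hoxa10 and 209 for Hoxd10 in the same cells.

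**Figure D3:**
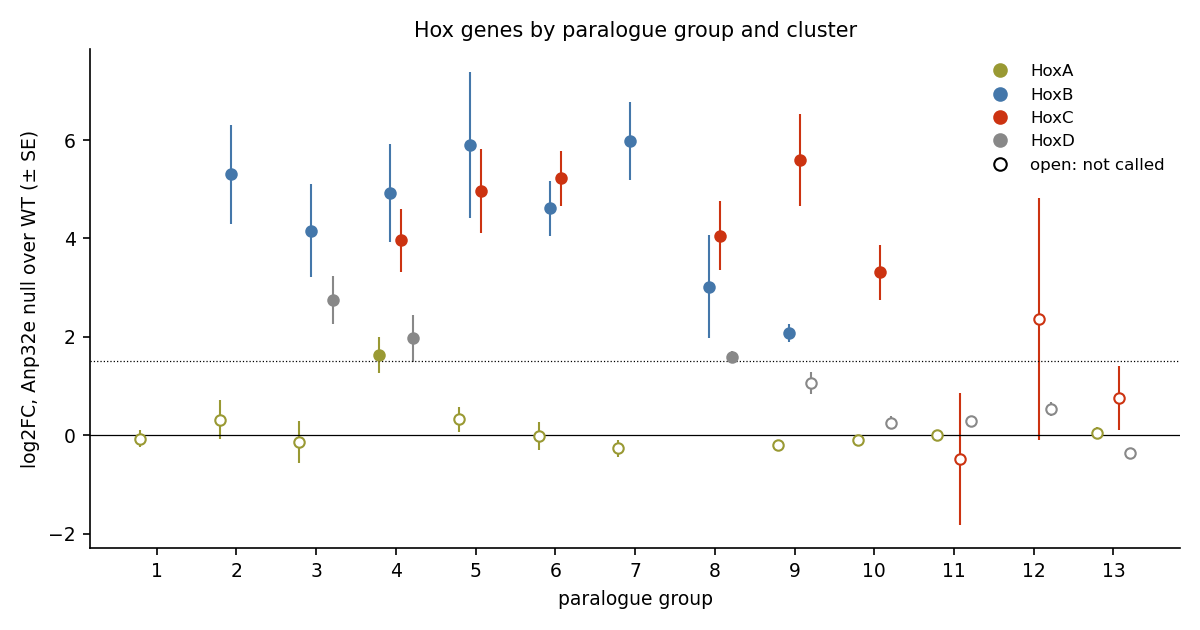
Deposited log2FC (Anp32e null over WT, ± standard error) of the Hox genes with an adjusted p, by paralogue group, coloured by cluster, with called genes filled and a dotted line at 1.5. The called HoxC genes lie in groups 4 to 10, where the HoxA genes other than Hoxa4 stay near 0; Hoxb5 had 0 WT reads, so its fitted value is no measure of size.

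**Figure D4:**
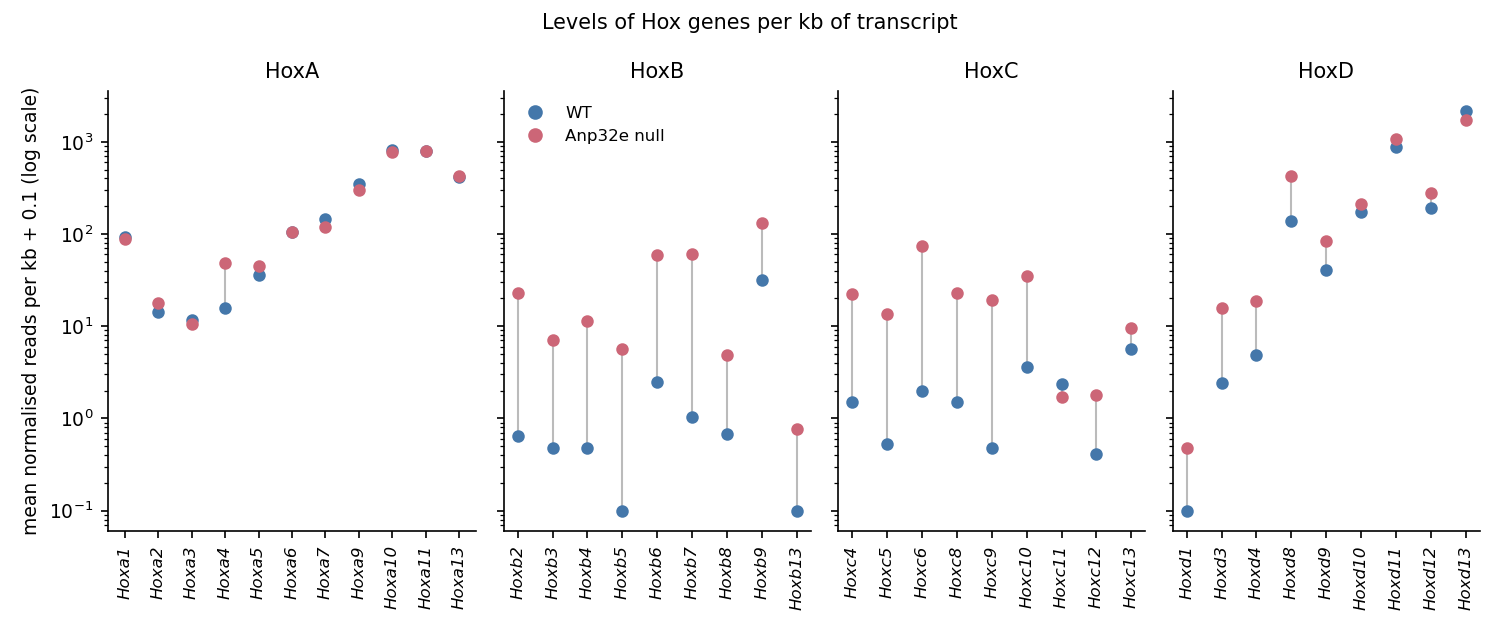
Mean normalised reads per kb of transcript (plus 0.1, log scale) of each Hox gene with reads in WT and Anp32e null MEFs, 1 panel per cluster, with a line joining the groups. HoxC levels reach at most 73.9 per kb (Hoxc6 in Anp32e null MEFs), while Hoxd13 stands at 2182 in WT and 1707 in Anp32e null MEFs.

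Lists of genes that act with or upstream of Hox genes were read from the same deposited DESeq2 comparison. Of 9 TALE cofactors, 0 were called higher and 1 lower, Meis3 (log2FC −1.72, adjusted p = 6.12e-25). Pbx2 had a log2FC of 0.50, and at an adjusted p under 0.05 there were 4 higher and 2 lower. Among these, Meis1, Pknox2 and Meis2, named after their values were seen, had log2FC of 0.95, 1.02 and −0.99 and were not called. Of 12 upstream regulators, Cdx2 and Cdx4 had no reads, 9 had an adjusted p and 0 were called. The retinoic acid receptor gene Rarg, itself on chromosome 15, had a log2FC of 0.68 (adjusted p = 3.81e-11, DESeq2 Wald test). Rara had one of −0.01 and the insulator protein gene Ctcf one of 0.05, and 3 of the 9 had an unadjusted p under 0.05. At an adjusted p under 0.05 there were 1 higher, Rarg, and 1 lower, Bmpr1b (log2FC −1.12, adjusted p = 5.67e-06, DESeq2 Wald test), a gene named after its value was seen. Of 24 Polycomb genes 0 were called, 6 were higher and 2 lower at an adjusted p under 0.05, and 10 had an unadjusted p under 0.05. Cbx6 and Cbx7, themselves on chromosome 15, had log2FC of 0.47 and 0.94 (Cbx7, named after its value was seen, had the largest change of the list), and the abundant Rbbp4, Rbbp7 and Phc2 lay between −0.08 and 0.12. Of 14 Trithorax and H3K27 demethylase genes 0 were called, and 5 were higher and 2 lower at an adjusted p under 0.05, with 7 at an unadjusted p under 0.05. By limma, 0 of the 3 TALE and upstream genes with recovered reads were called, and no gene of the other 2 lists had recovered reads. Of all autosomal genes, 16.8% were higher and 14.2% lower at an adjusted p under 0.05. The medians of these 4 lists were 0.16, −0.00, 0.08 and 0.07, beside 3.96 for the HoxC genes.

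The genes outside the Hox clusters with a mean of at least 50 whose log2FC lay closest to 4.51, the median of the 6 called HoxC genes, were Aldh1a1 (4.53), Sprr1a (4.48), Gabra4 (4.57), Gm867 (4.57) and Dcn (4.44). The likeness is that of a single fold change between the 2 groups. None of the 5 lies on chromosome 15. Aldh1a1, which makes retinoic acid, was the most abundant of them, with computed means of 76.4 normalised reads in WT and 1760.0 in Anp32e null libraries.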

How the data were processed

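Reads of 3 WT and 3 Anp32e null libraries were aligned by the authors to mm10 with STAR, counted per RefSeq transcript with Subread (featureCounts) and compared with DESeq2. The deposited table is that comparison alone. Its signal column is the mean over 6 libraries after the authors' division by size factors. The log2 fold change and its standard error, the score (Wald statistic) and the p-value, raw and adjusted by Benjamini-Hochberg, are the authors' own values from DESeq2, and calls use them as deposited. A model of reads per library (limma) was planned as an alternative only, if such reads could be recovered.

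Of 42361 transcripts, 42203 were matched to 25043 genes in RefSeq (GRCm38.p6), each gene standing for its transcript with the highest mean. GENCODE models gave exons, strands, lengths and searched transcripts, and gene spans are those of RefSeq, so the ends can differ. The worth of 1 read in each library was fitted to 2695 low means, and transcripts with 1 read showed by the direction of their deposited log2FC which group a library belongs to. Means under 100 were then searched for sums of whole reads with a tolerance of 1e-13. Of 11802 transcripts, 11671 (98.9%) had a single solution, 131 had more and 0 had none. For 8611 of 8999 transcripts with reads in both groups (95.7%) the log2 ratio of the recovered means lay within 0.1 of the deposited log2FC; for the 9 HoxC genes the largest difference was 0.101. Group means of genes over this limit were computed from the deposited mean and log2FC and have no error of their own. Ratios of reads have exact conditional Poisson intervals (95%). A group with 0 reads has a floor of 3 reads over the group.

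The members and lists were chosen with earlier results of these data known. Named are the 9 genes, Anp32e, other genes in the cluster and the 6 nearest on each side, the paralogues, the 5 genes most alike, and of each list up to 4 called genes with the largest absolute log2FC, filled up with the most abundant ones. Added after the values were seen were the sex-linked genes, the most abundant gene of each marker list, genes without reads, Bmpr1b, Cbx7, Meis1, Meis2, Pknox2 and Krt5. The lists were TALE cofactors, upstream regulators, Polycomb, Trithorax and H3K27 demethylase, and limb and axial position genes, with markers of 9 cell types (neuron, chondrocyte, neural crest and glia, skeletal muscle, macrophage, endothelium, epithelium, mesothelium and fibroblast). Alternatives were adjustment over every transcript with reads, a Wald test with 1.5 as its null hypothesis, thresholds of 0.5 and 0.01, means of at least 10 and 50, any transcript, X and Y kept, medians of the chromosome or of all genes taken out, floors of 1 and 5 reads, and limma on log2(normalised reads + 0.5), with pseudocounts of 1 and 2 and without each library in turn. The recovery and the limma fit were also run on simulated data, whose outcome is not given here and supports no value above. Python 3.11.15 with numpy 2.4.6, pandas 2.3.3, scipy 1.17.1, numba 0.67.0 and matplotlib 3.10.9 was used, and limma 3.58.1 in R 4.3.3.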

Additional observations from a re-analysis of the deposited data

How the results depend on the processing

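The count of 6 called HoxC genes was 5 or 6 under 18 of 19 alternatives. Some of these could not have changed it. Keeping X and Y leaves genes of chromosome 15 as they are, and any transcript is the same transcript, since each HoxC gene has 1. A threshold of 0.5 could not have lowered it. The count was 1 among genes with a mean of at least 50, since of the 9 genes only Hoxc6 has such a mean. A Wald test with 1.5 as its null hypothesis gave 5, without Hoxc10. Leaving out each library in turn (limma) gave 6 to 6, the same genes each time, while log2FC moved. For example, Hoxc8 moved from 4.46 to 3.47 and 5.33 without WT libraries b and c, and Hoxc6 from 5.51 to 6.30 without WT library a. Hoxc5 moved from 4.90 to 5.57 and 4.19 without WT libraries b and c, and Hoxc9 from 5.28 to 4.66 without WT library c. Without Anp32e null library b, Hoxc11 moved from −1.24 to −0.28 and Hoxc12 from 1.23 to 2.10. Without Anp32e null library c, Hoxc11 and Hoxc12 moved the other way, to −2.39 and 0.63. Hoxc13 moved from 0.65 to 0.20 without Anp32e null library a, 0.26 without WT library c and 1.21 without Anp32e null library c. Among the 6 called genes the largest adjusted p (limma) was 0.0482, for Hoxc8 without Anp32e null library b. The median log2FC of 3.96 was 3.64 with the chromosome 15 median taken out, because that median (0.32) was subtracted from every member. No HoxC log2FC changed sign with either median taken out. The pseudocount of 2 lowered the log2FC of Hoxc9 from 5.59 to 4.02, of Hoxc12 from 2.36 to 0.69 and of Hoxc5 from 4.96 to 3.66. It also lowered that of Hoxc4 from 3.96 to 3.26, Hoxc8 from 4.06 to 3.27 and Hoxc6 from 5.22 to 4.57.

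Counts of paralogues, flanking genes and lists, and the counts of groups that did not overlap, were run under alternatives chosen after seeing the data; paralogue counts fell as given above, chondrocyte and muscle markers and TALE cofactors fell to 0 called in the same Wald test, limb and axial genes from 4 to 1 and fibroblast markers from 2 to 1. With a threshold of 0.5, counts rose for HoxD paralogues (2 to 4), TALE cofactors (1 to 5), fibroblast and chondrocyte markers (each 2 to 4), mesothelial markers (5 to 7), limb and axial genes (4 to 6), upstream regulators and macrophage markers (each 0 to 2), and Polycomb genes and neural crest markers (each 0 to 1), and flanking genes stayed at 0 under all 6 alternatives. No paired analysis was possible because the recovered libraries carry no replicate number. The next highest transcript was not run, since each HoxC gene has 1. The 6 called genes had only 3 to 21 WT reads each, which makes their ratios imprecise.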

Other observations

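Other genes that mark limb type and axial position were in the table. Of 12 such genes outside the Hox clusters, 11 had reads and an adjusted p in the deposited DESeq2 comparison, 3 were called higher and 1 lower, and Isl1 had no reads. Meox2, a somite and muscle regulator, had computed means of 59.4 normalised reads in WT and 419 in Anp32e null MEFs (log2FC 2.82, standard error 0.224, adjusted p = 3.26e-34, DESeq2 Wald test). Emx2, a homeobox gene of the shoulder girdle and urogenital tract, had means of 46.1 and 213 (log2FC 2.21). Tbx4, the T-box gene of the hindlimb, had means of 374.9 and 1232 (log2FC 1.72, adjusted p = 3.02e-53, DESeq2 Wald test), and Tbx5, that of the forelimb, of 602 and 149.95 (log2FC −2.01, adjusted p = 5.32e-38, DESeq2 Wald test). In the Wald test with 1.5 as its null hypothesis, 1 of these 4 calls remained.

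Of 6 macrophage markers 0 were called by the deposited DESeq2 comparison and 0 of 3 by limma, with 2 at an unadjusted p under 0.05. Their summed means were 344 normalised reads in WT and 261 in Anp32e null libraries, Cd68 was the most abundant and Tyrobp had no reads. The 2 genes moved in opposite directions, Cd68 with a log2FC of −0.62 and Csf1r with 1.06 (adjusted p = 0.000248 and 0.00935, DESeq2 Wald test). Of 6 neural crest and glial markers 0 were called by DESeq2 and 0 of 3 by limma, with 2 at an unadjusted p under 0.05. Their summed means were 261 and 393, Tfap2a was the most abundant and Foxd3 had no reads.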
